A study of Mus musculus with 6 samples.

Results

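The 3 wild-type libraries of endothelial cells taken from the mouse cerebellum at postnatal day 9 are described here, over every gene whose deposited normalised read count was at least 10 in each of the 3. This rule kept 13337 of the 14437 genes listed. The series compared 3 wild-type with 3 Ccm3 knock-out libraries of these cells, and the knock-out libraries entered no step below. All 3 wild-type libraries came from C57BL6 mice, and wild-type is the only allele their labels name. Each label names its own mouse (wild-type mouse 1, 2 and 3), without giving litter, sex or treatment. Cells were freed with a dissociation kit made for adult brain and passed over CD45 and CD31 magnetic beads. CD45 is found on leukocytes, and CD31 is the product of Pecam1, found on endothelial cells, platelets and some leukocytes. The isolates are therefore bead-selected cell suspensions, and not a culture or a single-cell sort.

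Brain endothelial cells line the capillaries of the brain and form the blood-brain barrier. Tight junctions close the gaps between neighbouring cells, so that sugars, amino acids, lactate, hormones and iron cross through dedicated carriers, while efflux pumps return lipophilic compounds to the blood. Wnt signalling through beta-catenin induces and keeps this barrier, pericytes support it, and in the mouse the cerebellar vessel bed is still growing during the days after birth. Which member of a gene family a cell uses, the paralogue, often separates brain endothelium from that of other organs.

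The 4 markers of the label were all present at high level. In wild-type 1, 2 and 3, Pecam1 had 9709, 10055 and 11351 normalised reads, Cldn5 had 10670, 10440 and 11371, Spock2 had 95123, 91657 and 107377, and Slc2a1 had 7984, 8413 and 9458. The 3 libraries lay close together for each marker, with a coefficient of variation (CV, the SD over the mean) between 4.48% for Cldn5 and 8.79% for Slc2a1, and wild-type 3 was the highest for all 4.

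The recovered reads behind the values were 18225655, 21142333 and 16281778 in wild-type 1, 2 and 3, so that a single read was worth 0.743, 0.667 and 0.903 normalised reads. The median member had 327, 368 and 264 reads. Of the 1100 genes that did not meet the rule, 214 were below 10 in all 3 libraries and 886 in 1 or 2 of them. Dmgdh, C920006O11Rik and Gm37121 lay just inside the limit, each with its lowest value, 10.01, in wild-type 2, while Bdkrb2, Kif6 and Pld4 lay just outside it with a lowest value of 9.93 in wild-type 3.

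The non-members with the highest values were X- and Y-linked, and they set wild-type 3 apart. Xist, the RNA that coats the inactive X chromosome in cells with more than a single X, had 16018, 5.34 and 10856 normalised reads across wild-type 1, 2 and 3. The Y-linked genes Ddx3y, Kdm5d, Uty and Eif2s3y had 0, 0, 0.743 and 0.743 in wild-type 1, but 1938, 609, 489 and 465 in wild-type 2 and 921, 291, 314 and 290 in wild-type 3. Wild-type 1 thus held Xist with at most 1 read of each Y-linked gene, and wild-type 2 held the Y-linked genes with Xist near 0. Wild-type 3 held both, Xist at 67.8% of its value in wild-type 1 and the 4 Y-linked genes at 47.5% to 64.3% of theirs in wild-type 2, although its label names 1 mouse. How that library came to hold both was not tested. Many values below are given per library, and the median spread also without wild-type 3. Levels and shares given as a mean and SD include wild-type 3.

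To show the sequence at the starts of genes that lead the barrier programme, 4 windows are printed from 250 bases before to 50 bases after the start of the gene, as RefSeq gives them on build GRCm38.p6. Each is on the plus strand: Cldn5 at chr16:18776597-18776896, Spock2 at chr10:60106007-60106306, Slc2a1 at chr4:119108495-119108794, and Slco1c1, the thyroid hormone carrier, at chr6:141524104-141524403. Capitals mark TATAAA and GGGCGG on either strand (GGGCGG on the minus strand reads CCGCCC here), and the marked matches do not overlap each other.
Cldn5: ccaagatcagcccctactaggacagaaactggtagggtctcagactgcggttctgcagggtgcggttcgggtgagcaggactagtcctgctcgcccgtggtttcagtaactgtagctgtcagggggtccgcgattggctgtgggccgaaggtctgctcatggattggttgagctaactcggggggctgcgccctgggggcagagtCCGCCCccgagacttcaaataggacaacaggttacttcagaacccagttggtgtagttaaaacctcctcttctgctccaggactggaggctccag
Spock2: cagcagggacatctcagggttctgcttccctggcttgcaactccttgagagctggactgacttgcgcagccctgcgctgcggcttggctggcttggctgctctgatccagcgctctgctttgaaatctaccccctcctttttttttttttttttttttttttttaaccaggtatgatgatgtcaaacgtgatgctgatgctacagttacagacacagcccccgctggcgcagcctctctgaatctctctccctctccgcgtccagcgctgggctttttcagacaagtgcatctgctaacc
Slc2a1: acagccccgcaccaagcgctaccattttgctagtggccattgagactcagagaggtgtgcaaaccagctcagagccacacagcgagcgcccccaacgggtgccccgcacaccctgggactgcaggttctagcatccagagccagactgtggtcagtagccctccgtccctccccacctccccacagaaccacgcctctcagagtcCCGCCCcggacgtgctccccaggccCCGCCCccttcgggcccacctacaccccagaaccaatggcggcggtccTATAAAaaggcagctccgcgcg
Slco1c1: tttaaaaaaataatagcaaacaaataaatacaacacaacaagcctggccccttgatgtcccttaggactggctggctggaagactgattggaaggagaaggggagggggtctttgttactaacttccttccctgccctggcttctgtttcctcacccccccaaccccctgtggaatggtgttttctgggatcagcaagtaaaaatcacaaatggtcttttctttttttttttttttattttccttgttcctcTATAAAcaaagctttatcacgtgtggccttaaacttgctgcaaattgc

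These windows differed in both motifs and in CpG content. The Cldn5 window held 1 GGGCGG, 12 CpG and no TATAAA. That of Spock2, with the highest level of the 4, held neither motif and 10 CpG. The Slc2a1 window held 2 GGGCGG, 18 CpG and 1 TATAAA. The Slco1c1 window held 1 TATAAA, no GGGCGG and 1 CpG. Both TATAAA matches lie in the 50 bases after the RefSeq start. A high level in these cells was therefore found beside each of these combinations.

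Across members, 9803 of the 12253 nuclear protein-coding genes had a window, using the first window listed for each. TATAAA on either strand was in 6.69% of these windows, and in 14.2% of all 27025 windows in the RefSeq table. It was in 15.2% of the 79 windows found for the 100 genes with the highest level per kilobase, and in 9.89%, 7.45% and 5.51% of the windows in the highest, the next and the following group when genes were divided by level into 10 groups of equal size. In the lowest of the 10 groups the share was 7.75%. The 12 of the 100 highest genes with TATAAA included Calr, Car4, Fos, Flt1, Slco1c1, Vim, Slc2a1 and B2m. GGGCGG was in 66.1% of the members' windows, in 64.6% of those of the 100 highest genes and in 35.9% of all windows, and the median CpG count was 21, 20 and 7 in these sets. Of the 16 windows found for the 20 barrier genes described below, 3 held TATAAA (Slco1c1, Abcg2 and Car4) and 7 held GGGCGG, with a median of 15 CpG. A match to these letters is a description of the window and not a site shown to be bound.

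Between genes, levels are compared here as normalised reads per kilobase of merged exons, the union of all annotated exons of a gene, and ranks run over the 12253 nuclear protein-coding members. The median gene had 63.6 normalised reads per kilobase, the 10th percentile was 9.16, the 90th 348 and the 99th 1853. The summed level was concentrated in few genes, since 785 genes held 50% of it, the top 20 held 10.1% and the top 100 held 21.9%. Over all members with an exon length the top 100 held 73.6%, because mitochondrial and short structural RNAs have very high values per kilobase, and these are left out of the ranks. On the scale not divided by length, 116 members averaged at least 10000 normalised reads, 2471 averaged 1000 to 10000, 6649 averaged 100 to 1000, and 4101 stayed below 100.

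Bsg, which encodes basigin, the chaperone of monocarboxylate transporters at the membrane, stood at the top. It had 31913, 31046 and 31032 normalised reads per kilobase in wild-type 1, 2 and 3, well above every other gene. The beta-actin gene Actb followed with 19775, 17656 and 17123, Spock2, which encodes the secreted proteoglycan testican-2, with 17192, 16565 and 19407, and Sparcl1, a secreted matrix-associated protein, with 17150, 14399 and 14840. The ranges of these 3 overlapped, and so did those of 18 of the 19 neighbouring pairs in the top 20, so that only Bsg held a place of its own in the order. Ranks were stable as a set all the same: 18 genes were in the top 20 of all 3 libraries, and 23 were in it in at least 1.

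**Figure D1:**
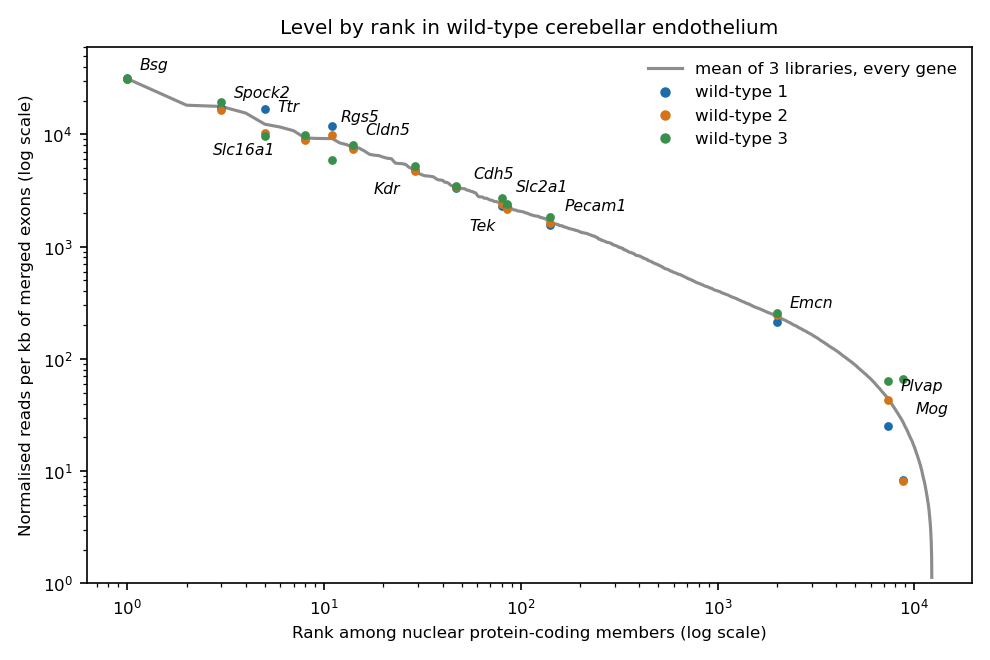
Normalised reads per kilobase of merged exons (vertical axis, log scale) against rank (horizontal axis, log scale) for the 12253 nuclear protein-coding members. The line is the mean of 3 libraries and points are the libraries of named genes: Bsg leads at 31330, Cldn5 is at rank 14 with 7646, and the libraries of Rgs5, Ttr, Plvap and Mog lie far apart while those of Bsg, Cdh5 and Cldn5 lie together.

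The rest of the top 20 combined barrier genes, matrix genes, housekeeping genes and markers of other cells. Slc16a1, the carrier MCT1 for lactate and ketone bodies, had a mean of 9288 ± 519 normalised reads per kilobase (SD, n = 3 libraries, as for every ± below), Cldn5 had 7646 ± 342 and the transferrin receptor gene Tfrc 7124 ± 242. Sparc, a collagen-binding matrix protein, had 11602 ± 189 and the fibronectin gene Fn1 8392 ± 269. Widely used genes in the set were Hsp90ab1, Calr, Eef1a1, Tmsb4x, Tpm4, Tpt1, Rplp1 and Selenop, between 6258 and 10766. The other 3 were Ttr at 12314 ± 4022, Rgs5 at 9175 ± 3020 and Hba-a1 at 9178 ± 3102. They mark choroid plexus, pericytes and red blood cells, and their CVs of 32.7%, 32.9% and 33.8% were the highest in the top 20. Hba-a1 and Hba-a2 are near-identical copies, and no label says how reads that match both were counted, which makes their separate levels uncertain.

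By value without division by length, RNAs other than nuclear messages led. The mitochondrial ribosomal RNAs mt-Rnr2 and mt-Rnr1 took 13.2%, 17.5% and 19.0% of the summed value in wild-type 1, 2 and 3, and the mitochondrial coding genes, led by mt-Co1, mt-Nd5 and mt-Nd1, another 1.63%, 2.29% and 2.27%. The genes Gm26917, Gm42418 and CT010467.1, which lie together on chromosome 17 at an annotated copy of ribosomal RNA sequence, took 1.65%, 1.82% and 1.46%. Malat1, a nuclear long non-coding RNA, had 63954, 114442 and 113017 normalised reads. Gm23935, annotated as a 57-base microRNA gene on chromosome 16, had 93564, 145710 and 190195, the other 7 annotated microRNA genes being far lower. Wild-type 1 was thus the lowest library for mitochondrial RNA, Malat1 and Gm23935, and 81.5% of its summed value fell on nuclear coding genes, against 75.8% in wild-type 2 and 74.4% in wild-type 3. Of the nuclear coding genes, Fn1, Spock2, Sptbn1, Bsg, Actb, Sparcl1, Col4a1, Macf1, Kdr, Tfrc and Sparc were in the top 20 by value, Sptbn1 (spectrin) and Macf1 (a cytoskeletal linker) through their long messages.

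General endothelial genes were high and close between libraries. All 18 listed were members, 16 of them ranked in the top 1000 and 4 in the top 100. Kdr and Flt1, receptors for vascular endothelial growth factor, had 4919 ± 247 and 3194 ± 410 normalised reads per kilobase, Cdh5, the endothelial cadherin, 3389 ± 88.8, and Tek, the receptor for angiopoietins, 2288 ± 107. Emcn, which encodes the sialomucin endomucin, was the lowest of the 18 at 237 ± 22.7. Their summed value was 157905, 157757 and 175110 in wild-type 1, 2 and 3, a ratio of highest to lowest library of 1.11, and 12 of the 18 were highest in wild-type 3. For comparison with this and later lists, 5049 of all 13337 members (37.9%) were highest in wild-type 3.

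Genes of the blood-brain barrier and its capillaries were among the highest of all. All 20 listed were members, 17 ranked in the top 1000 and 8 in the top 100. Besides Spock2, Slc16a1 and Tfrc, these were Slc7a5, the large neutral amino acid carrier, at 5478 ± 267 normalised reads per kilobase, Itm2a at 5387 ± 235, Car4, a capillary carbonic anhydrase, at 4511 ± 120, Slco1c1 at 3089 ± 412, and Mfsd2a, which carries lysophospholipids and restrains transcytosis, at 2375 ± 370. The efflux pump genes were lower, at 1753 ± 228 for Abcb1a (P-glycoprotein), 363 ± 25.8 for Abcc4 and 229 ± 16.2 for Abcg2. Targets and regulators tied to Wnt signalling had 1862 ± 55.1 for Apcdd1, 801 ± 26.4 for Foxf2, 484 ± 41.9 for Lef1 and 331 ± 14.0 for Foxq1. The list's summed value was 301848, 301967 and 336745 in wild-type 1, 2 and 3, and 16 of the 20 were highest in wild-type 3. Pericyte genes went the other way, with sums of 84990, 71339 and 43130 over 12 genes, and their part in this difference was not tested.

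A few barrier transporters varied more than the rest of the list. Slco1a4, an organic anion carrier of the barrier, had 3741, 4555 and 7257 normalised reads across wild-type 1, 2 and 3, a CV of 35.5% against a list median of 7.10%. Slc22a8, another organic anion carrier, had 4298, 5310 and 6031, and Mfsd2a had 4558, 5254 and 6217. For all 3 genes wild-type 3 was the highest library and wild-type 1 the lowest. In the transcripts of Slco1a4, 2.65% of the 50-base words are shared with Slco1a5.

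Paralogue use was measured as the share of a family's summed normalised reads per kilobase. The SD of a share is over libraries and does not cover the choice of gene length, which shifted many shares by more. The 88 families of related genes looked at held 688 different genes, of which 510 were in the table and 478 met the rule, and the 85 families with at least 2 members are described. The highest member held more than 50% of its family in 60 families and more than 90% in 12, and the median share was 60.1%. It was the same gene in all 3 libraries in 79 families. In 12 families the ranges of the highest and the next member overlapped, among them those of Foxo4 and Foxo1, Klf4 and Klf2, Abcg1 and Abcg2, Gjc1 and Gja1, Col4a1 and Col4a2, Spock2 and Sparcl1, Tgfbr2 and Bmpr2, Ccm2l and Pdcd10, Map3k1 and Map3k3, and Ifitm3 and Ifitm2.

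**Figure D2:**
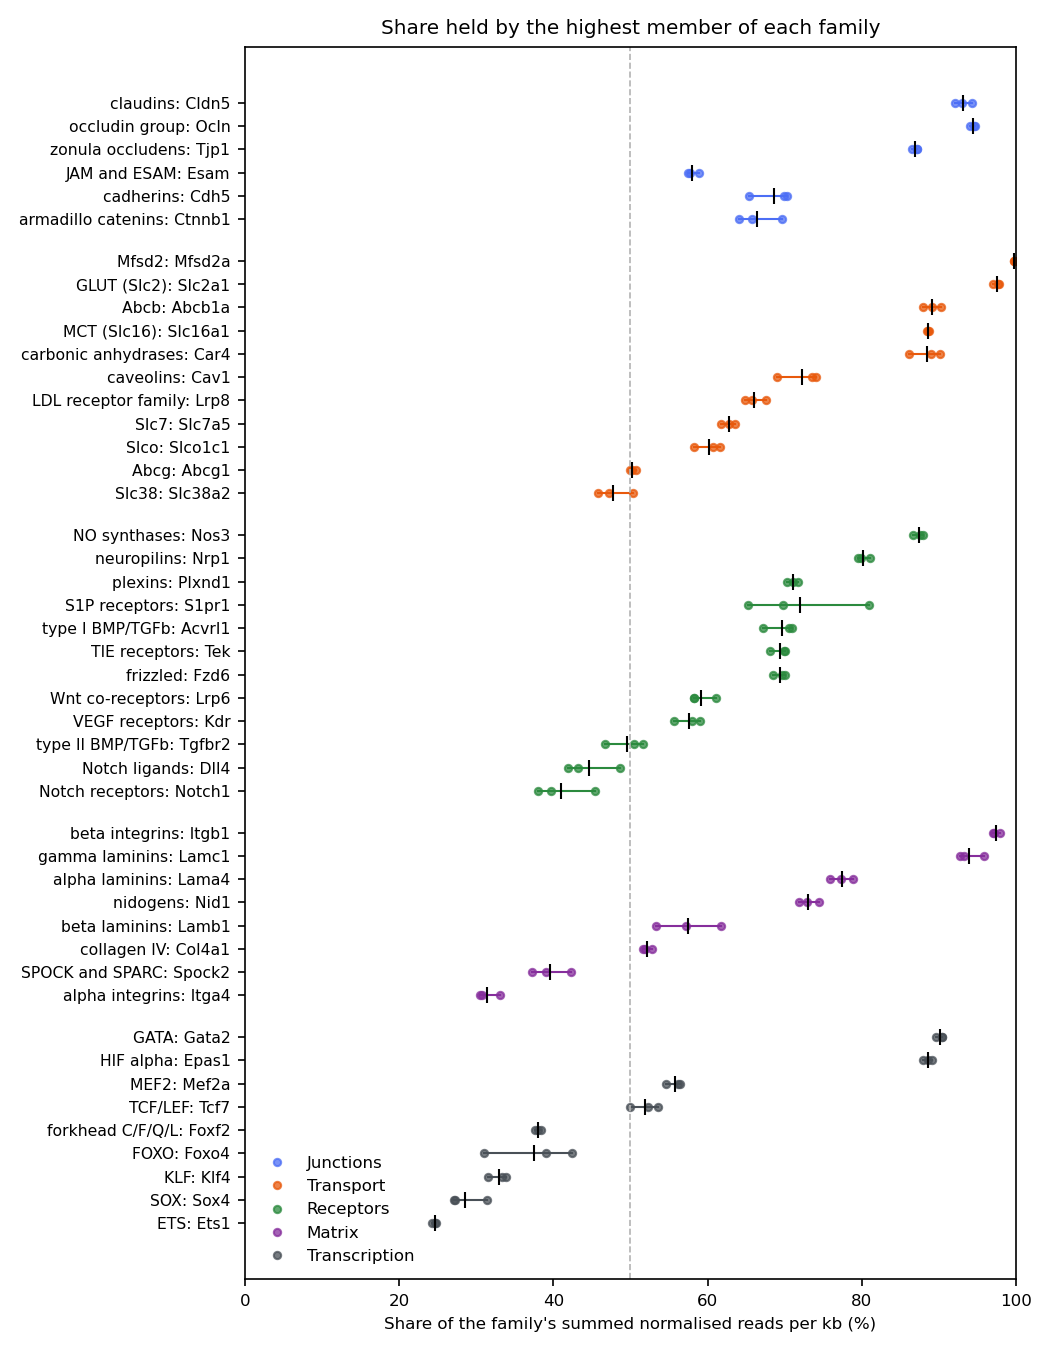
Share of a family's summed normalised reads per kilobase held by its highest member (horizontal axis, %) for 46 of the 85 families, grouped by role. Points are the 3 libraries, ticks their mean, and the dashed line is at 50%: Mfsd2a, Slc2a1, Itgb1, Ocln, Lamc1, Cldn5 and Gata2 lie above 90%, while the transcription factor families KLF, SOX and ETS lie below 40%.

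The tight junction families were led by a single member each. Cldn5, the claudin that seals brain endothelium to small molecules, held 93.1 ± 1.14% of the claudin family. Cldnd1, a claudin-domain gene, came next with 559, 467 and 296 normalised reads per kilobase in wild-type 1, 2 and 3, against 7535, 7373 and 8030 for Cldn5. Only 6 of the 24 claudin-family genes looked for were in the table, the rest being Cldn11 (0.698%), Cldn12 (0.464%), Cldn2 (0.207%) and Cldn1 (0.132%). Cldn11, the claudin of myelin, had 25.4, 28.6 and 121 normalised reads per kilobase, with wild-type 3 far above the others. Ocln (occludin) held 94.5 ± 0.319% against Marveld2 (tricellulin), and Tjp1 (ZO-1), the scaffold under the junction, held 87.0 ± 0.356% of its family.

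Other junction families were shared more widely. Esam, an endothelial adhesion molecule, held 58.0 ± 0.813% of its family, with Jam2 at 20.8% and F11r (JAM-A) at 16.2%, in the same order in each library. Cdh5 held 68.6 ± 2.77% of the cadherins. Cdh2 (N-cadherin), which links endothelial cells to pericytes and is also made by pericytes and neurons, held 23.1%. Ctnnb1 (beta-catenin) held 66.5 ± 2.85% of the armadillo catenins, above Pkp4 at 17.2%.

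Among carriers, Mfsd2a held 99.8 ± 0.0654% of the Mfsd2 pair and Slc2a1, the barrier's glucose carrier GLUT1, 97.5 ± 0.406% of its family. The next glucose carrier, Slc2a12, had 21.03, 9.14 and 15.98 normalised reads per kilobase, against 2277, 2400 and 2698 for Slc2a1, and its range overlapped those of Slc2a3, Slc2a9 and Slc2a8. Abcb1a held 89.1 ± 1.14% of the Abcb genes, with the caveat that its transcripts share 15.5% of their 50-base words with Abcb1b. Slc16a1 held 88.6 ± 0.164% of the monocarboxylate carriers, the next being Slc16a4 at 4.54%. Car4 held 88.4 ± 2.04% of the carbonic anhydrases.

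Several transport families had more than a single well-expressed member. Slc7a5 held 62.7 ± 0.881% of its family and the cationic amino acid carrier Slc7a1 29.6%, but without division by length Slc7a1 led with 55.8%. Slco1c1 held 60.1 ± 1.74%, Slco2b1 22.1% and Slco1a4 15.4%. Slc38a2 and Slc38a5, carriers of small neutral amino acids, held 47.8 ± 2.28% and 32.1%, with Slc38a3 at 12.8%. Lrp8, a receptor for apolipoprotein E and reelin, held 66.1 ± 1.38% of the 14 LDL receptor family genes, all of which were in the table, with no other above 8.88% (Lrp6). Cav1, the caveolin of endothelial caveolae, held 72.2 ± 2.78% against Cav2, with Cavin1 at 72.7 ± 0.606% of the cavins. Abcg1, a lipid exporter, and Abcg2, a drug pump, held 50.2 ± 0.381% and 49.2%, and which of the pair led depended on the exon length used.

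Most families of growth factor and guidance receptors were led by the member known for endothelium. Kdr held 57.6 ± 1.75% and Flt1 37.2% of the receptors for vascular endothelial growth factor, and the lymphatic receptor Flt4 5.23%. Per kilobase, Kdr was 1.66, 1.58 and 1.42 times Flt1 in wild-type 1, 2 and 3, and the ranges did not overlap. Without division by length Kdr held 48.8% and the ranges overlapped. Kdr then had 43866, 42525 and 46873 normalised reads and Flt1 39604, 40270 and 49509, so that Flt1 was the higher in wild-type 3. Tek held 69.4 ± 1.09% against Tie1, and Nrp1 80.1 ± 0.774% against Nrp2. Plxnd1, the plexin for class 3 semaphorins in vessels, held 71.1 ± 0.737% of 9 plexins. S1pr1, the main endothelial receptor for sphingosine-1-phosphate, held 72.0 ± 8.13%, while S1pr3 had 408, 325 and 221 normalised reads per kilobase in wild-type 1, 2 and 3. Acvrl1 (ALK1) held 69.6 ± 2.09% of the type I receptors for BMP and TGF-beta, whereas the type II receptors Tgfbr2 and Bmpr2, at 49.6 ± 2.56% and 44.6%, changed place between libraries, and without division by length Bmpr2 led with 64.7%. Nos3 (endothelial nitric oxide synthase) held 87.4 ± 0.648% and Nos2 12.1%.

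In the Wnt and Notch families several members shared the sum. Fzd6 held 69.4 ± 0.792% of the frizzled receptors with 827, 867 and 981 normalised reads per kilobase in wild-type 1, 2 and 3. Fzd4, the frizzled that receives norrin in retinal and cerebellar vessels, held 18.0% with 217, 224 and 253, and the ratio of Fzd6 to Fzd4 was 3.81, 3.86 and 3.88. The co-receptors Lrp6 and Lrp5 held 59.2 ± 1.64% and 40.8%. Tcf7 held 51.9 ± 1.82% and Lef1 28.5% of their family of Wnt effectors, but Lef1 led where the longest transcript or no length was used. Notch1 held 41.0 ± 3.84% and Notch4 31.1% of the receptors, and Notch3, which is made by pericytes and smooth muscle, 20.8% with 242, 228 and 139 normalised reads per kilobase. Of the ligands, Dll4 held 44.6 ± 3.60%, Jag1 33.0% and Jag2 19.5%, but without division by length Jag1 led with 37.5% and Dll4 held 33.5%. The target genes Hes1 and Hey1 held 52.9 ± 1.07% and 21.9%, and Heyl 14.2%.

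Basement membrane families were dominated by the chains of vessels. Col4a1 and Col4a2, the 2 chains of the common collagen IV trimer, held 52.1 ± 0.613% and 47.3%, with 6793, 5926 and 5483 against 6000, 5483 and 5016 normalised reads per kilobase, and Col4a1 was 1.13, 1.08 and 1.09 times Col4a2. The other 4 collagen IV genes each held at most 0.265%, the share of Col4a3. Lama4 held 77.4 ± 1.49% of the laminin alpha chains, Lamc1 93.9 ± 1.69% of the gamma chains and Lamb1 57.4 ± 4.17% of the beta chains, the remainder of these being Lamb2. Nid1 held 73.0 ± 1.30% of the nidogens. Itgb1 held 97.4 ± 0.518% of the integrin beta chains, whereas the alpha chains were divided among Itga4 at 31.4 ± 1.43%, Itga1 at 18.9%, Itga6 at 18.0% and Itga5 at 16.3%. Spock2, Sparcl1 and Sparc together made up nearly all of the SPOCK and SPARC family, at 39.5 ± 2.57%, 34.5% and 25.9%.

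Transcription factor families were divided among more members, and 5 of the 9 shown had a highest member below 40%. The top shares were 24.6 ± 0.276% for Ets1 among the ETS factors, ahead of the endothelial factors Erg at 19.7% and Fli1 at 15.0%, and 28.6 ± 2.47% for Sox4, ahead of Sox7 at 24.4%, Sox18 at 16.8% and Sox17 at 8.24%. Klf4 and Klf2, the factors induced by flow, held 32.9 ± 1.27% and 28.6% with overlapping ranges, above Klf6 at 14.6%. Foxf2, Foxc1, Foxq1 and Foxf1 held 37.97 ± 0.390%, 31.9%, 15.7% and 10.4% of the forkhead genes listed with them, but without division by length Foxc1 led with 48.3% and Foxf2 held 23.2%. Foxo4 and Foxo1 held 37.5 ± 5.90% and 37.4%, and Foxo3 25.1%, with a different order in different libraries, and without division by length Foxo1 led with 50.2%. Exceptions were Gata2 at 90.1 ± 0.392% and Epas1 (HIF-2 alpha) at 88.6 ± 0.624%, whose 4861, 5109 and 5294 normalised reads per kilobase compared with 669, 622 and 676 for Hif1a. Mef2a held 55.7 ± 1.03%, Mef2d 26.7% and Mef2c 17.6%.

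In most of the metabolic, chaperone and cytoskeletal families a single member held more than 50% of the sum. Hk1 held 98.3 ± 0.638% of the hexokinases, Aldoa 96.7 ± 1.02% of the aldolases, Eno1 95.2 ± 1.17% of the enolases and Ldha 66.4 ± 3.42% of the lactate dehydrogenases. Eef1a1 held 99.8 ± 0.0779% and Actb 90.6 ± 1.21%. Hsp90ab1 held 70.9 ± 1.10% of its family, and Hspa8 46.4 ± 1.13% of the 70-kDa heat shock genes. Vim and Nes, which encode the filaments vimentin and nestin, held 50.6 ± 3.02% and 33.0%, and Lmnb1 85.9 ± 1.75% of the lamins. Tuba1a held 76.6 ± 1.12% of the alpha tubulins, but it shares 52.0% of its 50-base words with the other alpha tubulins, so that this division between copies is uncertain.

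The genes whose loss causes cavernous malformations of the brain were expressed at moderate level. Pdcd10, also known as Ccm3, had 180, 178 and 234 normalised reads per kilobase in wild-type 1, 2 and 3, Ccm2 had 102, 94.5 and 98.3, and Krit1 (Ccm1) had 32.2, 34.6 and 37.0. Ccm2l, a paralogue of Ccm2, had 216, 275 and 283. Ccm2l ranked 1815, Pdcd10 2486, Ccm2 4609 and Krit1 8062 among the 12253 genes. The low place of Krit1 rests on a merged exon length of 21853 bases, since without division by length Krit1 led this set with 32.7%. Of the kinases that bind Pdcd10, Stk25 held 62.0 ± 0.250% and Stk24 38.01%. Map3k1 and Map3k3 (MEKK3), a kinase held in check by the complex, overlapped at 41.2 ± 2.46% and 40.01%.

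Genes of vessel subtypes were present at lower level than capillary genes. On the per kilobase scale, the median listed gene had 205 in the arterial list, 363 in the venous list and 276 in the tip cell list, against 1808 in the barrier list. Dll4, Gja4 (connexin 37), Unc5b and Efnb2 were the highest arterial genes, at 557 ± 88.0, 275 ± 9.77, 267 ± 20.8 and 226 ± 36.0. Of 13 arterial genes, Cytl1 and Nkx2-3 are not listed in the table used here. The arterial list was lowest in wild-type 1 for 10 of its 11 members, with a summed value of 7389, 8971 and 9867 normalised reads across wild-type 1, 2 and 3. The largest arterial differences were those of Fbln5 (417, 690 and 854), Gja5 (89.1, 158 and 167) and Bmx (101, 186 and 167).

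In the venous list the highest genes per kilobase were Tmsb10, Slc38a5 and Vwf, at 3467 ± 819, 1311 ± 47.4 and 678 ± 37.6. None of these is restricted to veins. Nr2f2, the factor that sets venous identity, had 3494, 2793 and 2235 normalised reads in the same order of libraries, highest in wild-type 1. Ackr1, a receptor of venules, was low at 40.8, 30.7 and 15.3, and so was Plvap, the diaphragm protein of fenestrated and immature vessels, at 49.7, 84.8 and 127. Plvap ranked 7347 per kilobase while Cldn5 ranked 14. Among tip cell genes, Apln, the ligand of the apelin receptor, had 2385 ± 247 normalised reads per kilobase and ranked 82, Mcam had 1313 ± 117 and Trp53i11 634 ± 25.4, whereas Esm1 had 13.2 ± 9.27 and Kcne3 10.4 ± 3.46.

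Cycling genes spanned a wide range of levels, and most early response genes were high. All 12 cycling genes were members, led by Mki67 at 1068 ± 205, Top2a at 400 ± 68.9 and Pcna at 389 ± 35.8 normalised reads per kilobase. The list median was 122. Ccnb1, Aurkb and Birc5 had 47.9, 57.1 and 63.3, below the 63.6 of the median nuclear protein-coding member. Of the 12 cycling genes, 11 were highest in wild-type 1. All 17 immediate early genes were members, and 15 ranked in the top 1000. Jun and Fos, subunits of the factor AP-1, had 13630, 15381 and 11769 and 9368, 11304 and 7782 normalised reads across wild-type 1, 2 and 3, which placed them at rank 33 and 37 per kilobase. Klf4 came next at 1964 ± 124. For 14 of the 17 genes wild-type 2 was the highest library and for 13 wild-type 3 was the lowest, with sums of 66635, 74794 and 59255. Of the stress and chaperone genes, Hspa8 had the smallest spread of the list, at 18302, 18181 and 18383. Hspa1a and Hspa1b, the inducible heat shock genes, had 220, 368 and 697 and 176, 342 and 771, highest in wild-type 3. These 2 share most of their sequence, and their separate values are uncertain.

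Markers of other cells were measured beside the endothelial ones, over 11 lists. In bulk samples fewer cells of a type and less RNA per cell cannot be told apart. Of these lists the pericyte genes had the highest sum not divided by length, with all 12 as members and 84990, 71339 and 43130 normalised reads across wild-type 1, 2 and 3. Summed per kilobase, they had 18589, 15686 and 9327, below the red blood cell list at 24987, 17237 and 12302. Rgs5, a regulator of G-protein signalling, had 53821, 44507 and 26797, Vtn (vitronectin) had 3702, 3375 and 1808, and Abcc9, a subunit of the pericyte potassium channel, had 11222, 9072 and 5676. All 12 were lowest in wild-type 3, and 11 were highest in wild-type 1. Abcc9 alone made up 64.3 ± 10.3% of the Abcc family, the largest SD of any top share, with Abcc4, the barrier's own member, at 23.7%.

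Smooth muscle and fibroblast genes were much lower, and their sums were lowest in wild-type 3. The 6 smooth muscle members summed to 6715, 6714 and 5543 normalised reads, and Smtn, which gave most of this, was level at 3517, 3636 and 3636. Acta2, the smooth muscle actin, had 201, 310 and 170, while Cnn1 and Actg2 are not listed in the table used here. The 9 fibroblast members summed to 4173, 4222 and 2138, and Col3a1, Col1a1 and Col1a2 led them at 132 ± 51.8, 89.6 ± 42.6 and 85.9 ± 28.6 normalised reads per kilobase. Of these 9, 8 were lowest in wild-type 3, and Dpt is not listed in the table used here.

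Glial lists moved in opposite directions in wild-type 3. The 9 oligodendrocyte members summed to 2655, 2404 and 10344 normalised reads, and all 9 were highest in wild-type 3. Mag, an adhesion protein of myelin, had 101, 159 and 726, and Mbp, a protein of compact myelin, 342, 429 and 1285. The 10 astrocyte and Bergmann glia members summed to 3253, 2771 and 1519, and 9 of them were lowest in wild-type 3, with Gfap at 732, 415 and 128 and Aqp4, the water channel of astrocyte endfeet, at 1053, 778 and 384. Olig1, at 11.9, 8.68 and 31.6, and Gjb6, at 5.94, 18.7 and 4.51, did not reach 10 in every library and were no members, and Opalin is not listed in the table used here.

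Neuronal genes were present, and those of granule neurons were mostly lowest in wild-type 1. The 7 granule neuron members summed to 3563, 4327 and 4465 normalised reads, and 6 of them were lowest in wild-type 1, the exception being Zic1, which was lowest in wild-type 3. They were led per kilobase by Zic2 at 462 ± 29.2, Zic1 at 250 ± 27.4 and Neurod1 at 102 ± 28.5, while Gabra6, Barhl1, Atoh1 and Cbln3 are not listed in the table used here. Zic factors are also made by meningeal and pericyte-lineage cells. The 13 general neuronal members had no common order, with 4, 3 and 6 of them lowest in wild-type 1, 2 and 3. They summed to 2892, 2578 and 3129, led per kilobase by Tubb3 at 78.9 ± 26.7, Elavl3 at 58.9 ± 21.1 and Map2 at 52.3 ± 7.31. Calb1, which is high in Purkinje cells, had 330, 78.1 and 11.7 normalised reads, highest in wild-type 1. Gad1 and Gad2, which make the transmitter of Purkinje and other inhibitory neurons, were highest in wild-type 2, at 47.5, 110 and 46.0 for Gad1 and 17.8, 22.0 and 10.8 for Gad2. Pcp2, another Purkinje cell gene, is not listed in the table used here.

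Blood and immune markers separated into present and near-absent lists. All 7 red blood cell genes were members, and each was highest in wild-type 1 and lowest in wild-type 3. They summed to 19943, 13801 and 10034 normalised reads, led per kilobase by Hba-a1, Hba-a2 and Hbb-bs at 9178 ± 3102, 5541 ± 2079 and 2122 ± 735. Microglia and macrophage genes were low, with 5 of 16 as members. Cx3cr1 had 44.6, 40.05 and 39.7 normalised reads and Csf1r 52.7, 58.7 and 69.5, P2ry12 had 6.68, 16.7 and 10.8, C1qa 0, 13.3 and 3.61, and Aif1, Trem2 and Tyrobp are not listed in the table used here. Ptprc, the gene for the CD45 antigen used in the bead step, had 72.0, 37.4 and 47.9. Of the platelet genes only Itga2b was a member, at 54.9, 73.4 and 68.6, while Pf4, Ppbp, Gp9 and Gp1ba are not listed in the table used here.

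Choroid plexus genes were led by Ttr, the carrier of thyroid hormone and retinol in cerebrospinal fluid. It had 20100, 12178 and 11535 normalised reads across wild-type 1, 2 and 3 and ranked 5 per kilobase, and all 6 members of the list were highest in wild-type 1. The ciliary factor Foxj1 had 1035, 494 and 353, Clic6 395, 200 and 204, and Otx2 95.8, 46.1 and 56.9, and Tmem212 is not listed in the table used here. The part that any of these other cells plays in the spread of other genes was not tested.

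**Figure D3:**
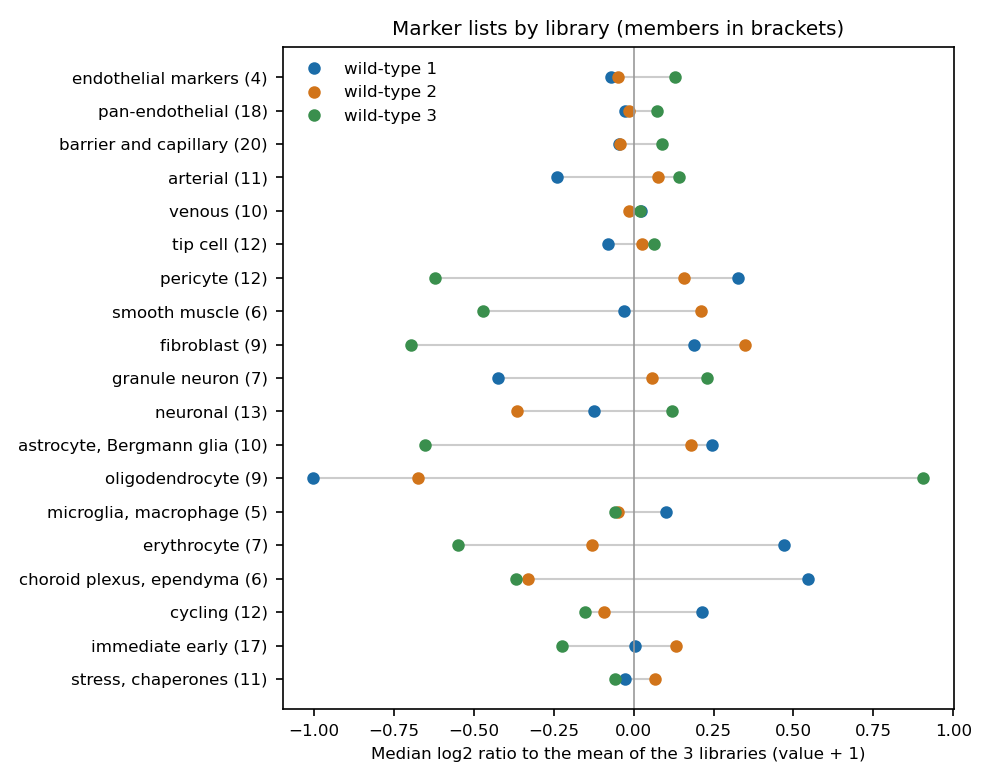
Median log2 ratio of each marker list to the mean of the 3 libraries (horizontal axis, log2 of value + 1), with 1 point per library and the number of members in brackets. The endothelial marker, pan-endothelial, barrier, venous, tip cell, microglia and stress lists lie within 0.13 of 0 in every library. The arterial list lies at -0.24, 0.08 and 0.14 in wild-type 1, 2 and 3. Oligodendrocyte genes lie at 0.91 in wild-type 3, and pericyte genes at -0.62 in wild-type 3 and 0.33 in wild-type 1.

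Agreement between the 3 libraries was close for most genes. The CV over 3 libraries had a median of 10.2%, with 50% of genes between 5.91% and 18.4%. Over pairs of libraries it was 8.34% without wild-type 1, 10.3% without wild-type 2 and 7.12% without wild-type 3. A CV of 2 values tends to be lower than a CV of 3, so these pair medians compare with each other and not with 10.2%. It fell with level, from 24.2% for genes averaging 10 to 30 normalised reads, through 10.7% at 100 to 300, to 6.54% at 1000 to 3000, and it was 7.58% for the 116 genes at 10000 or more. The CV that read counting alone would give was 19.0%, 6.59%, 2.22% and 0.690% in these bins. The observed median was thus above that of counting in each of these bins. Taken as a ratio, the excess was least at low level and by far the most for the most abundant genes. A median CV taken from 3 values lies below the spread behind it, while the counting CV does not. This comparison therefore understates the excess over counting. Over all levels, 2834 members (21.2%) had a CV below that of counting alone.

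**Figure D4:**
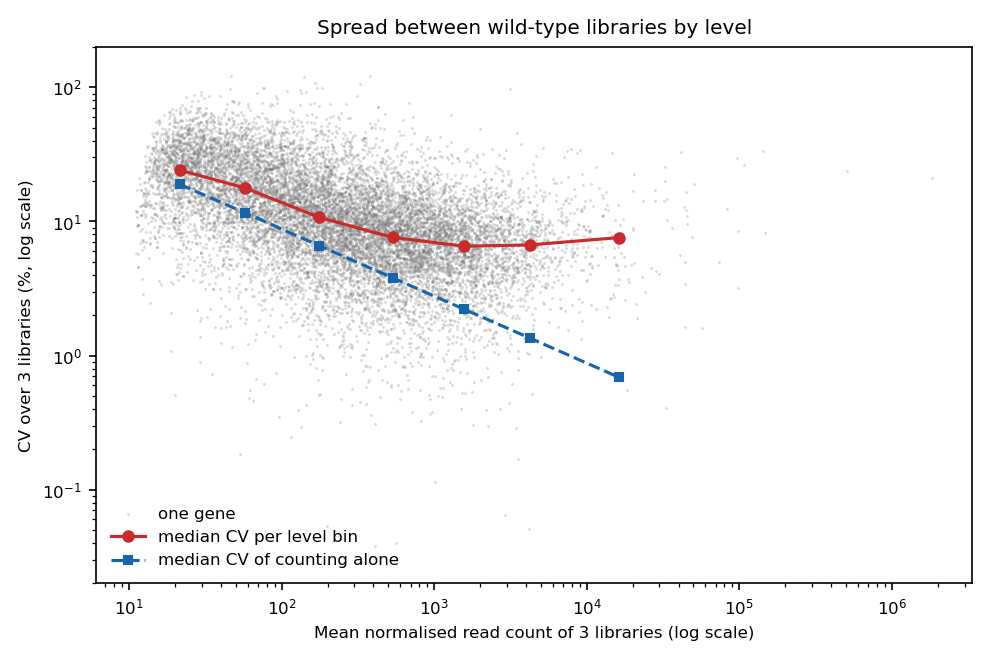
CV over the 3 wild-type libraries (vertical axis, %, log scale) against the mean normalised read count (horizontal axis, log scale), with 1 dot per gene. The median CV per level bin lies at 24.2% for genes averaging 10 to 30 and levels off near 7%, while the CV of counting alone, 19.0% in that bin, goes on falling to 0.690% for genes at 10000 or more.

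Over all members the values of library pairs were strongly related. Pearson's r of log2(value + 1) was 0.989 for wild-type 1 and 2, 0.981 for 1 and 3, and 0.986 for 2 and 3, across genes, which are not independent replicates. A difference of at least 2-fold was found for 310 genes (2.32%) between wild-type 1 and 2, 632 (4.74%) between 1 and 3, and 377 (2.83%) between 2 and 3. The highest and lowest library differed by at least 2-fold for 928 members (6.96%), and for 231 of the 9236 members averaging at least 100. The difference reached 5-fold for 11 of these 231 genes.

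Among all 13337 members, 4949, 3339 and 5049 were highest in wild-type 1, 2 and 3, and 4455, 3886 and 4996 were lowest. Wild-type 2 was thus the least frequent library at both ends. Of the 928 genes, 312 were highest in wild-type 1, 290 in wild-type 2 and 326 in wild-type 3. By their lowest library the division was uneven, with 403 in wild-type 1, 133 in wild-type 2 and 392 in wild-type 3. Of the 231 averaging at least 100, 96 were highest in wild-type 1, 79 in wild-type 2 and 56 in wild-type 3. Those highest in wild-type 2 had a median merged exon length of 6178 bases, against 3539 and 3254 for those highest in wild-type 1 and 3 and 4570 for all members. Over all members, the fifth with the shortest exons (up to 2529 bases) had a median log2 ratio to the mean of 0.06, 0.00 and -0.08 in wild-type 1, 2 and 3, and the fifth with the longest exons (7848 bases and more) had -0.03, -0.02 and 0.05. Wild-type 1 was thus shifted toward short and wild-type 3 toward long genes, by at most 0.08 on the log2 scale.

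The 11 genes reported of the 12 with the highest CV among those averaging at least 100 belonged to 3 groups by their highest library. Wild-type 3 led for 4 genes: Ugt8a, which makes the galactolipids of myelin, had 105, 127 and 912 normalised reads across wild-type 1, 2 and 3, and Mag and Cldn11 are myelin genes as well. Gsn, the actin-severing protein gelsolin, which oligodendrocytes also make, had 148, 162 and 621. Wild-type 1 led for Calb1, Car8 and Nefl, the calcium-binding, carbonic anhydrase-related and neurofilament genes that are high in Purkinje cells, with 364, 101 and 47.9 for Car8 and 273, 81.4 and 46.9 for Nefl. Wild-type 2 led for Ryr1, Nrxn3, Trank1 and Sptbn4, with 106, 366 and 26.2 for the calcium release channel gene Ryr1 and 69.1, 392 and 87.6 for the synaptic adhesion gene Nrxn3. For some of these genes the remaining libraries also differed strongly. Calb1 had 78.1 in wild-type 2 and 11.7 in wild-type 3, and Ryr1 had 106 in wild-type 1 and 26.2 in wild-type 3.

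**Figure D5:**
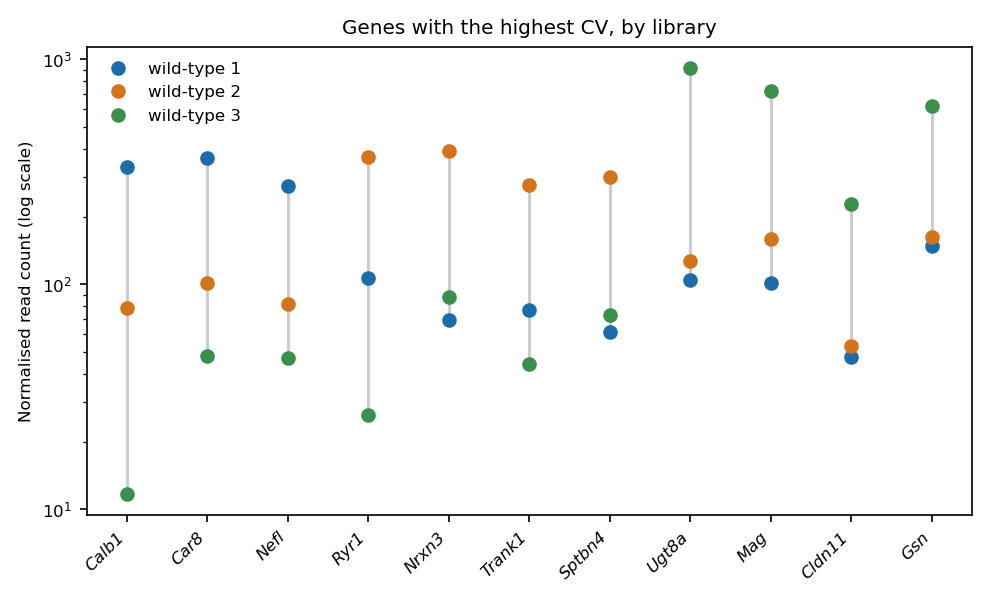
Normalised read count (vertical axis, log scale) in each wild-type library for the 11 genes reported of the 12 with the highest CV, ordered by the library in which they were highest. Calb1, Car8 and Nefl peak in wild-type 1, Ryr1, Nrxn3, Trank1 and Sptbn4 in wild-type 2, and Ugt8a, Mag, Cldn11 and Gsn in wild-type 3.

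At the other end, the 12 named genes with the lowest CV were Gtf2h2, Bub3, Vwa5a, Arhgef2, Lrch2, Piezo1, Slc41a1, Baz2b, Zmym1, Apod, Gatd3a and Elk3. Gtf2h2, a subunit of the transcription factor TFIIH, had 334.9, 335.1 and 335.0 normalised reads, and Piezo1, the mechanosensitive channel of endothelium, had 2923, 2920 and 2920. Their CVs, between 0.0291% and 0.299%, were all below that of counting alone, 4.80% for Gtf2h2 and 1.62% for Piezo1. Values this close are therefore not evidence that these genes vary less than others. Among the 100 nuclear coding genes with the highest values, the median CV was 6.33% and 41 were under 5%, led by Sptan1 (spectrin) at 0.405% and Hspa8 at 0.556%. The 3 above 25% were Rgs5, Ttr and Cxcl12, a chemokine of arterial and stromal cells with 8930, 11011 and 14777 normalised reads.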

How the data were processed

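RNA of 3 wild-type isolates was depleted of ribosomal RNA and made into stranded total RNA libraries, per the labels' protocols. Per the submitters' processing notes the tools were Trim Galore, STAR 2.5.3a and DESeq2 with build GRCm38. No source used here names the counter, annotation, strand setting or gene filter, and overlapping and antisense genes cannot be told apart. The values deposited by the authors are a signal: read counts divided by a size factor per library. Dividing by the step of each library gave whole reads for 100% of values (tolerance 0.01), which gave the depths. No count test was run, since there is only 1 group. No label says whether the isolates were prepared together, and the spread between them may be partly technical.

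Symbols came from the file (14300 of 14437 genes) or the reference (81), and merged exon lengths from GENCODE M21 (GRCm38). All value columns could be assigned to a sample (0 could not). CVs, shares, ranks and log2 ratios with a pseudocount of 1 were computed with Python 3.11.15, pandas 2.3.3 and numpy 2.4.6, TMM scaling with edgeR 4.0.16 in R 4.3.3, and plots with matplotlib 3.10.9. The calculations were tested on simulated data. Members and lists were chosen with earlier results of these data known. Genes were named as follows: the 4 markers, the 20 highest by value and per kilobase, the leading members of families and lists, and the 12 with the highest and lowest CV at a mean of at least 100, leaving out predicted genes. Others were chosen after their values were seen: the X- and Y-linked genes, the lowest or most variable genes of a list, Gad1 and Gad2, and genes with a role in the brain barrier. Alternatives were other minimum values, exon lengths, scalings and pseudocounts, and leaving out each library. A few genes that the naming rule selects are not reported here.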

Additional observations from a re-analysis of the deposited data

How the results depend on the processing

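The number of genes kept was 13337 and stayed within 1.5 times of this under every minimum tried, from 10437 at a minimum of 50 to 14437 with none, and was 13428 to 13579 without 1 library. The share of the summed level in the top 100 genes, 73.6% per kilobase of merged exons, was 36.8% with no division by length, 68.0% with the longest transcript, 63.7% without mitochondrial genes and 21.9% over nuclear protein-coding genes, the last chosen after seeing the data; without 1 library it was 71.0% to 76.1%. The count of families with a member above 50% was 60, and 58 to 61 without 1 library. The top shares themselves depended on length. They shifted by a median of 2.34 percentage points with the longest transcript and 5.90 without division by length, against a median SD over libraries of 1.38. Without division by length, Esam went from 58.0% to 46.9% and Notch1 from 41.0% to 54.1%. The median CV, 10.2%, was 11.1% with scaling to total reads, 8.51% at a minimum of 50 and 12.1% over genes above the counting CV (chosen after seeing the data). Without 1 library it was 7.12% to 10.3%, but CVs over a pair of libraries tend to be lower and do not compare directly with 10.2%. Marker ranks moved to 92 for Pecam1, 20 for Cldn5, 4 for Spock2 and 107 for Slc2a1 with the longest transcript, and to 100, 87, 2 and 134 without division by length. The highest family member changed in 11 families with the longest transcript and in 17 without division by length, the clearest case being Slc7a1 (55.8%) in place of Slc7a5. None of the 60 list ratios moved by more than 0.1 with a pseudocount of 0.5 or TMM. For genes averaging under 30 the depth limits precision, the counting CV being 19.0%. No paired analysis was possible because there is only 1 group.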

Other observations

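Genes that escape X inactivation were members and differed between the libraries in the order of Xist. Kdm6a, a histone demethylase, had 1120, 746 and 1116 normalised reads across wild-type 1, 2 and 3, and Eif2s3x, a translation initiation factor subunit, had 1189, 708 and 1082. Ddx3x, an RNA helicase, had 9720, 7126 and 8353, and Kdm5c 1925, 1346 and 1555. All 4 were lowest in wild-type 2, the library with Xist near 0, and wild-type 1 and 3 were 1.15 to 1.68 times its value. The 443 X-linked members together had a median log2 ratio to the mean of 0.03, -0.03 and 0.01. These values stand beside the Xist and Y-linked values above, and what links them was not tested.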
